A study of Arabidopsis thaliana with 12 samples.

Results

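The comparison examined the induction of MKK4DD in Arabidopsis leaves of the wild-type background Col. Its members were chosen by their titles: 3 Col DEX arrays and 3 Col mock arrays, which made 6 of the 12 arrays in the series. Each array held leaf RNA of 1 sample, with n = 3 biological replicates per group from independent experiments. The Col DEX plants were 4 weeks old, carried a transgene for MKK4DD behind a promoter that dexamethasone (DEX) switches on, and had their leaves infiltrated with 2 µM DEX. The Col mock plants had the same age, background and transgene and received 0.1% ethanol. Both groups were sampled 24 h after infiltration. The other 6 arrays came from the mutant sid2, which lacks a working SID2 gene, with the same transgene and the same DEX and mock treatments. They served to estimate the spread and are otherwise quoted only where a Col value is set against them. Plants that lacked the transgene and received DEX were not analysed here, so an effect of DEX itself and an effect of the induced kinase cannot be told apart.

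MKK4 is a MAP kinase kinase, and MKK4DD is a form of it that is active without an upstream signal. Active MKK4 phosphorylates the MAP kinases MPK3 and MPK6, which in turn phosphorylate transcription factors and enzymes of ethylene synthesis. In leaves this cascade is best known from immunity, where it acts downstream of receptors for microbial molecules and contributes to the phytoalexin camalexin, to ethylene and to a shift from growth toward defense.

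Values are given as the log2 expression level of a locus on an array, and a change is the Col DEX mean minus the Col mock mean in log2, with its standard error (SE) from limma. A locus was called when its Benjamini-Hochberg adjusted p was under 0.01 and its change exceeded 2-fold, and "rose" and "fell" are used for called loci alone. Intensities had medians of 255 to 289 over the arrays, and the lower quartile of all values was a level of 4.17, below which a level is called dim. MKK4 itself had levels of 14.04, 14.05 and 14.23 on the DEX arrays 1, 2 and 3, against 11.95, 12.25 and 12.36 on the mock arrays, and this signal can come from the transgene as well as from the native gene. SID2, the salicylic acid (SA) synthesis enzyme isochorismate synthase, had levels of 12.48, 6.08 and 12.26 on the DEX arrays, against 10.36, 9.72 and 10.21 on the mock arrays. The sid2 arrays lay between 6.002 and 6.26 for this gene. The array labelled Col DEX replicate 2, named DEX array 2 in the text, therefore went against its label. Counts of called members are given with this array and without it. Leaf identity was checked with 6 mesophyll markers, whose levels lay at 6.10 to 14.00 on the DEX arrays and 10.12 to 14.42 on the mock arrays. Seed storage markers were at 3.61 to 4.63 and 3.86 to 4.58. Of the 6 root markers, 4 were at 3.19 to 4.55 on the DEX arrays and 3.31 to 4.63 on the mock arrays, while PYK10 and SCR were above the dim level in mock leaves and fell.

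DEX changed a large part of the transcriptome. With all arrays, 9372 of 32627 loci (28.7%) were called, of which 4487 (13.8%) rose and 4885 (15.0%) fell. Without DEX array 2, 9033 loci (27.7%) were called, 4307 (13.2%) higher and 4726 (14.5%) lower. In both fits 4170 loci rose and 4633 fell, and 0 loci changed direction between them. Leaving out DEX array 2 removed 317 higher and 252 lower calls and added 137 higher and 93 lower calls. The median change over all loci was 0.045, with quartiles of -0.42 and 0.52. These figures are the background for the gene lists below, and the called shares of most of these lists are plotted. Genes with near-identical copies, such as CYP71A12 and CYP71A13, the LHCB1 genes or neighbouring SAUR genes, may share probe signal.

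**Figure D1:**
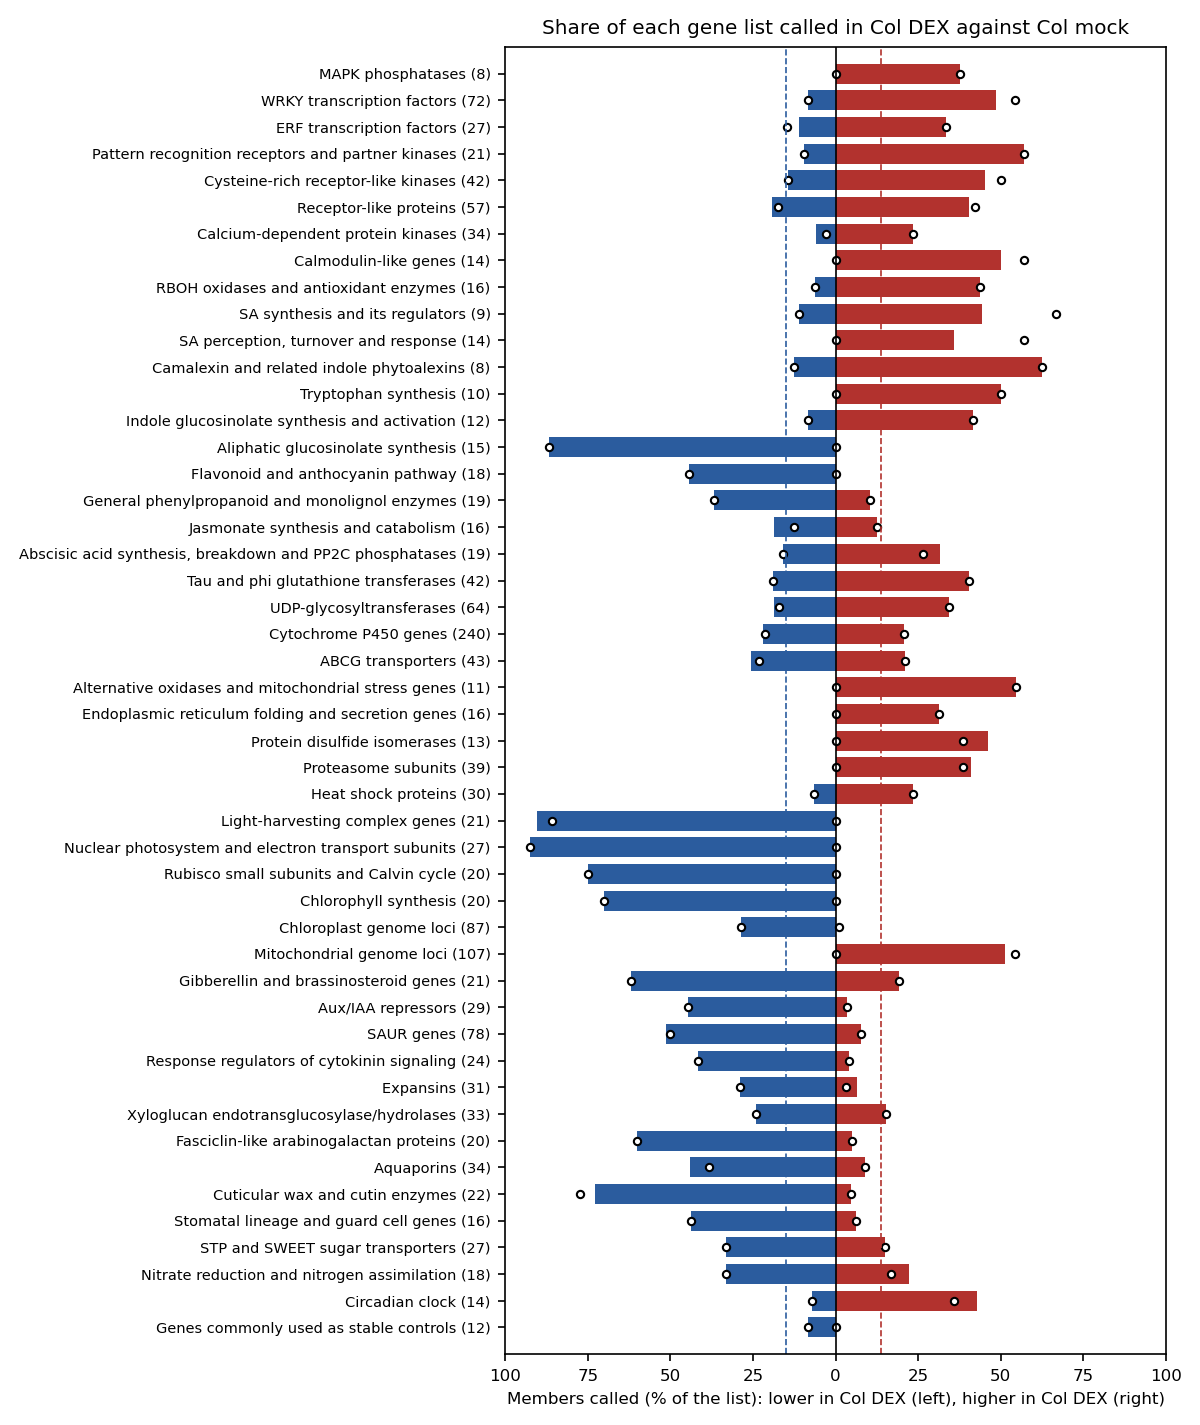
Share of the members of each gene list (number of members in brackets) called lower (blue, left) and higher (red, right) in Col DEX against Col mock, in percent, with all arrays. White circles give the same share without DEX array 2, and dashed lines give the shares over all loci, 15.0% lower and 13.8% higher. Bars of the light-harvesting, photosystem and aliphatic glucosinolate lists reach furthest to the left. Those of the camalexin, pattern receptor and mitochondrial stress lists reach furthest to the right.

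Among the loci with the strongest rises, several were close to the dim level in mock leaves. OSM34, an osmotin-like protein of the thaumatin family, had levels of 13.68, 13.79 and 13.85 on the DEX arrays, against 5.46, 4.53 and 4.44 on the mock arrays, a change of 8.96 ± 0.24 (adjusted p 5.03e-10). GLIP1, a secreted GDSL lipase with a known part in resistance to a necrotrophic fungus, had 12.86, 13.24 and 12.97 on the DEX arrays, against 3.65, 3.37 and 5.39 (change 8.89 ± 0.64, adjusted p 4.2e-07). The groups lay far apart for both genes. PHT3;2, a phosphate carrier of the mitochondrial inner membrane, rose by 8.66 ± 0.42, and AT5G44990 and AT3G48950 rose by 8.97 ± 0.24 and 8.73 ± 0.20. On the other side, SAUR16, a member of the auxin-induced SAUR family, had 4.85, 4.34 and 4.03 on the DEX arrays, against 12.38, 12.42 and 12.55 on the mock arrays (change -8.04 ± 0.55, adjusted p 2.81e-07). XTH6, an enzyme that cuts and rejoins xyloglucan in the cell wall, fell by 8.20 ± 0.29. PnsB3, a subunit of the chloroplast NDH complex, fell by 7.90 ± 0.37.

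Some genes of the MAP kinase cascade were called. Of 20 MAP kinase genes, 4 rose and 1 fell (3 and 1 without DEX array 2), and of 10 MAP kinase kinase genes 2 rose and 0 fell in both fits. With all arrays these shares were 20% higher and 5% lower for the MAP kinases and 20% and 0% for the kinase kinases. Over all loci the shares were 13.8% higher and 15.0% lower. MPK3 and MPK6, the direct targets of MKK4, were not called. MPK6 had 12.45, 12.57 and 12.47 on the DEX arrays, against 12.20, 12.26 and 12.34 (change 0.23 ± 0.08, adjusted p 0.0242), so that the groups did not overlap but differed by less than 2-fold. MPK3 had 12.92, 12.75 and 12.68 on the DEX arrays, against 12.70, 13.00 and 12.16, and its groups overlapped. MPK11, a close relative of MPK4, had 12.20, 11.66 and 12.09 on the DEX arrays, against 9.03, 10.27 and 8.81 on the mock arrays (change 2.62 ± 0.32). MKK2, an activator of MPK4, rose by 1.21 ± 0.10, and the C-group kinases MPK7 and MPK2 rose by 1.54 ± 0.23 and 1.301 ± 0.11. MPK12, a guard cell kinase, fell by 1.59 ± 0.16 (adjusted p 6.57e-06). A second MAP kinase gene was called lower without Col DEX replicate 1 or without Col mock replicate 3.

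Of 8 phosphatases that switch MAP kinases off, 3 rose and 0 fell in both fits, with a median change of 0.89. MKP1, a dual-specificity phosphatase that acts on MPK6, had 12.80, 12.83 and 13.00 on the DEX arrays, against 11.75, 11.75 and 11.81 on the mock arrays (change 1.104 ± 0.08, adjusted p 6.07e-07). PP2C5, a phosphatase of the PP2C class that acts on MPK3 and MPK6, had 8.95, 10.13 and 9.76, against 5.44, 5.21 and 5.63 (change 4.19 ± 0.26). Its close relative AP2C1 had 11.86, 12.08 and 11.91 on the DEX arrays, against 9.63, 12.48 and 10.15 on the mock arrays, and was not called (change 1.2 ± 0.53, adjusted p 0.0767). Without Col mock replicate 2 the change of AP2C1 was 1.95 and called.

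WRKY transcription factors, regulators of defense genes that bind the W-box, rose more often than they fell. Of 72 members, 35 rose and 6 fell (39 and 6 without DEX array 2), against 13.8% and 15.0% of all loci, and the rises ranged from 1.21 to 8.84. WRKY75, a senescence and phosphate regulator, had 12.82, 13.19 and 12.96 on the DEX arrays, against 4.04, 3.84 and 4.57 on the mock arrays (change 8.84 ± 0.21, adjusted p 2.72e-10). WRKY30 and WRKY63 rose by 7.51 ± 0.40 and 7.34 ± 0.18. WRKY53, a senescence regulator, rose by 2.74 ± 0.42. The members that fell moved less, and WRKY3 fell by 2.04 ± 0.21 and WRKY29, described as a target of the flagellin-triggered cascade, by 1.69 ± 0.21. WRKY29 had 4.20, 5.03 and 4.33 on the DEX arrays, against 6.25, 6.36 and 6.02, with no overlap between the groups. DEX array 2 was more than 2-fold below both other DEX arrays for 9 of the 72 members, against 208 of all 32627 loci.

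A group of early-response genes was high on Col mock replicate 2, and some of them also on sid2 mock replicate 2. On Col mock replicate 2, 594 loci were more than 2-fold above both other mock arrays, against 64 and 287 on mock replicates 1 and 3. Col mock replicate 3 was more than 2-fold below both others at 699 loci, against 137 and 207 on mock replicates 1 and 2. The loci high on Col mock replicate 2, 594 of 32627, included 8 of 27 ERF genes, 9 of 72 WRKY genes and 5 of 14 calmodulin-like genes. They also included 6 of 21 members of the pattern receptor list and 7 of 11 ethylene and jasmonate output genes. Like many other lists, the 42 glutathione transferases and the 39 proteasome genes held 0 of them, which is close to the share over all loci. RRTF1, an ERF of the redox response, had 12.51 on Col mock replicate 2, against 4.43 and 4.26 on mock replicates 1 and 3, while the DEX arrays had 6.07, 8.72 and 7.87. The cold and drought factors CBF1 and DDF1 had 10.24 and 10.48 on that mock array and at most 5.20 on the others. RRTF1, CBF1 and DDF1 were chosen after their values were seen, and all 3 were uncalled. The sid2 mock replicate 2 array was also high for RRTF1, at 10.40, against 4.61 and 4.98 on the other sid2 mock arrays. It had 9.32 for CBF1 and 8.91 for DDF1, against at most 5.16 on the other sid2 mock arrays. UGT72E2, another locus high on Col mock replicate 2, had 7.42, 5.002 and 5.64 on sid2 mock arrays 1, 2 and 3.

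**Figure D2:**
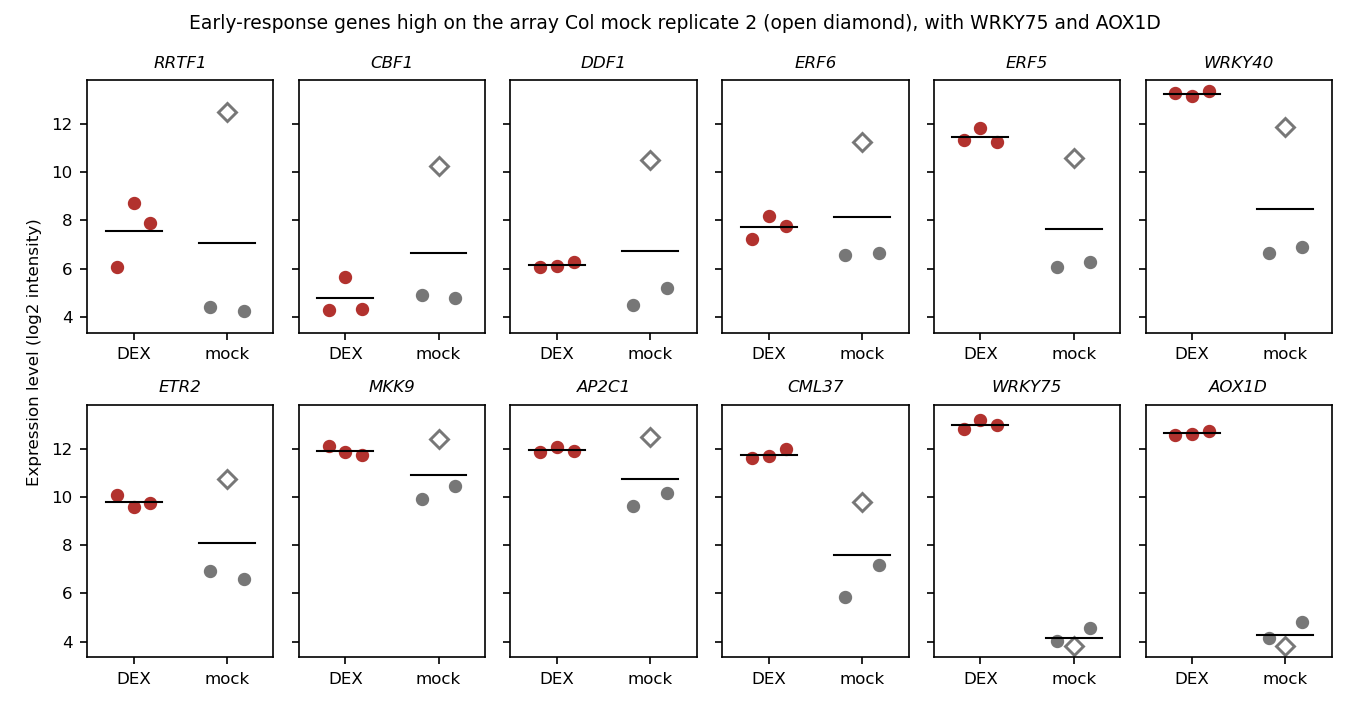
Expression level (log2 intensity) of 12 genes on the 3 Col DEX arrays (left, red) and the 3 Col mock arrays (right, grey), with the group mean as a black line and Col mock replicate 2 as an open diamond. In the panels from RRTF1 to CML37 the diamond lies above both other mock arrays, whereas for WRKY75 and AOX1D it is the lowest mock array and the groups are far apart.

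Of 27 ERF genes, 9 rose and 3 fell with all arrays (9 and 4 without DEX array 2). ERF1 and ORA59, which join ethylene and jasmonate signals, rose by 6.04 ± 0.35 and 5.75 ± 0.52. ERF1 had 11.91, 11.93 and 12.07 on the DEX arrays, against 5.08, 7.06 and 5.66 on the mock arrays, with no overlap. ERF71, known from responses to low oxygen, rose by 5.54 ± 0.20 from mock levels of 4.14 to 4.22. ERF6, a substrate of MPK3 and MPK6, had 7.21, 8.17 and 7.77 on the DEX arrays, against 6.58, 11.25 and 6.64 on the mock arrays, and was not called (change -0.44 ± 0.98, adjusted p 0.738). Without Col mock replicate 2 its change was 0.90, also uncalled. ERF38 and ERF72 fell by 5.13 ± 0.18 and 3.86 ± 0.38.

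Genes of receptors of pattern-triggered immunity and their partners mostly rose, and the flagellin receptor was among the 7 that were not called. Of 21 receptors, partner kinases and ubiquitin ligases, 12 rose and 2 fell in both fits, with a median change of 1.32. BAK1, the shared co-receptor, had 13.65, 13.72 and 13.75 on the DEX arrays, against 12.12, 12.40 and 12.26 on the mock arrays (change 1.45 ± 0.10, adjusted p 2.66e-07). BIK1, the cytoplasmic kinase that leaves the receptor complex on activation, had 12.61, 13.16 and 12.79, against 9.26, 10.23 and 9.68 (change 3.13 ± 0.23). LYK5, a chitin receptor, rose by 3.21 ± 0.32, and PUB24, a ubiquitin ligase that restrains this signaling, by 3.77 ± 0.15. FLS2, the receptor of flagellin, had 7.84, 7.79 and 7.17 on the DEX arrays, against 8.45, 10.44 and 6.498 on the mock arrays, and its groups overlapped (adjusted p 0.392). The peptidoglycan-binding LYM1 and LYM3 fell by 1.53 ± 0.11 and 1.23 ± 0.12.

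The larger receptor families moved in both directions. Of 42 cysteine-rich receptor-like kinases, 19 rose and 6 fell (21 and 6 without DEX array 2), with CRK32 at 6.17 ± 0.19 and CRK11 at 4.80 ± 0.18 among the rises and CRK21 at -3.12 ± 0.29 among the falls. Of 57 receptor-like proteins, 23 rose and 11 fell (24 and 10). RLP23, which senses a peptide of microbial NLP toxins, and RLP30, which senses a fungal protein, rose by 2.18 ± 0.17 and 4.70 ± 0.11. RLP7 had 11.93, 12.37 and 11.75 on the DEX arrays, against 4.49, 5.10 and 4.10 on the mock arrays (change 7.45 ± 0.21). DEX array 2 was more than 2-fold below both other DEX arrays for 5 of the kinases and 7 of the proteins, against 208 of all 32627 loci. Of 14 wall-associated kinases 4 rose and 0 fell in both fits, and WAKL10 had 13.17, 13.55 and 13.30, against 4.57, 5.72 and 4.67 (change 8.36 ± 0.28). Among 9 NDR1/HIN1-like genes 3 rose and 1 fell in both fits. NHL10, a marker of the flagellin response, rose by 8.02 ± 0.25, and NHL12 fell by 5.14 ± 0.17.

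Of 14 calmodulin-like genes 7 rose and 0 fell (8 and 0 without DEX array 2), with CML8 at 5.24 ± 0.19. Of 34 calcium-dependent protein kinases 8 rose and 2 fell (8 and 1). CPK29, CPK10 and CPK9 rose by 2.62 ± 0.23, 2.02 ± 0.09 and 1.93 ± 0.18. CPK5, which phosphorylates the oxidase RBOHD, had a change of 0.47 ± 0.14 (adjusted p 0.0121) and was not called. Of 16 oxidase and antioxidant genes 7 rose and 1 fell in both fits. RBOHD, the main oxidase of the immune burst, had 14.07, 14.20 and 14.09 on the DEX arrays, against 12.92, 12.98 and 13.09 on the mock arrays (change 1.12 ± 0.08). RBOHF rose by 1.65 ± 0.15. RBOHC, best known from root hairs, had 8.08, 8.79 and 8.51, against 4.30, 4.32 and 4.66, with no overlap. CAT2, the main leaf catalase, fell by 1.15 ± 0.20 (adjusted p 0.000379).

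The counts of SA genes depended on DEX array 2. Of 9 genes of SA synthesis and its control, 4 rose and 1 fell with all arrays, and 6 rose and 1 fell without DEX array 2. Their median change was 1.0 with all arrays and 2.25 without DEX array 2, and within same-numbered pairs of arrays it was 2.12, 0.31 and 1.98 for replicates 1, 2 and 3. DEX array 2 had the lowest level of the DEX arrays for 7 of the 9 genes but was more than 2-fold below both others for 1, SID2. It was the lowest at 9771 of all 32627 loci and more than 2-fold below both others at 208. EDS5, the transporter that exports the SA precursor from the chloroplast, had 12.93, 13.05 and 13.00 on the DEX arrays, against 10.20, 10.80 and 11.03 on the mock arrays (change 2.32 ± 0.21, adjusted p 2.82e-06). PBS3, which acts on the product of SID2, had 12.63, 11.95 and 12.77, against 10.39, 10.31 and 10.03 (change 2.21 ± 0.26). SARD1 and CBP60G, transcription factors that switch on SID2, rose by 2.99 ± 0.29 and 2.48 ± 0.40. EPS1, which releases SA from its conjugated precursor, had 7.46, 6.17 and 7.11, against 9.51, 8.95 and 9.93, and fell by 2.55 ± 0.31. SID2 itself changed by 0.18 ± 1.19 with all arrays and by 2.25 without DEX array 2. This array was set aside for its SID2 level, so both values are given as a description, and SID2 is among the 6 genes counted as higher without it.

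**Figure D3:**
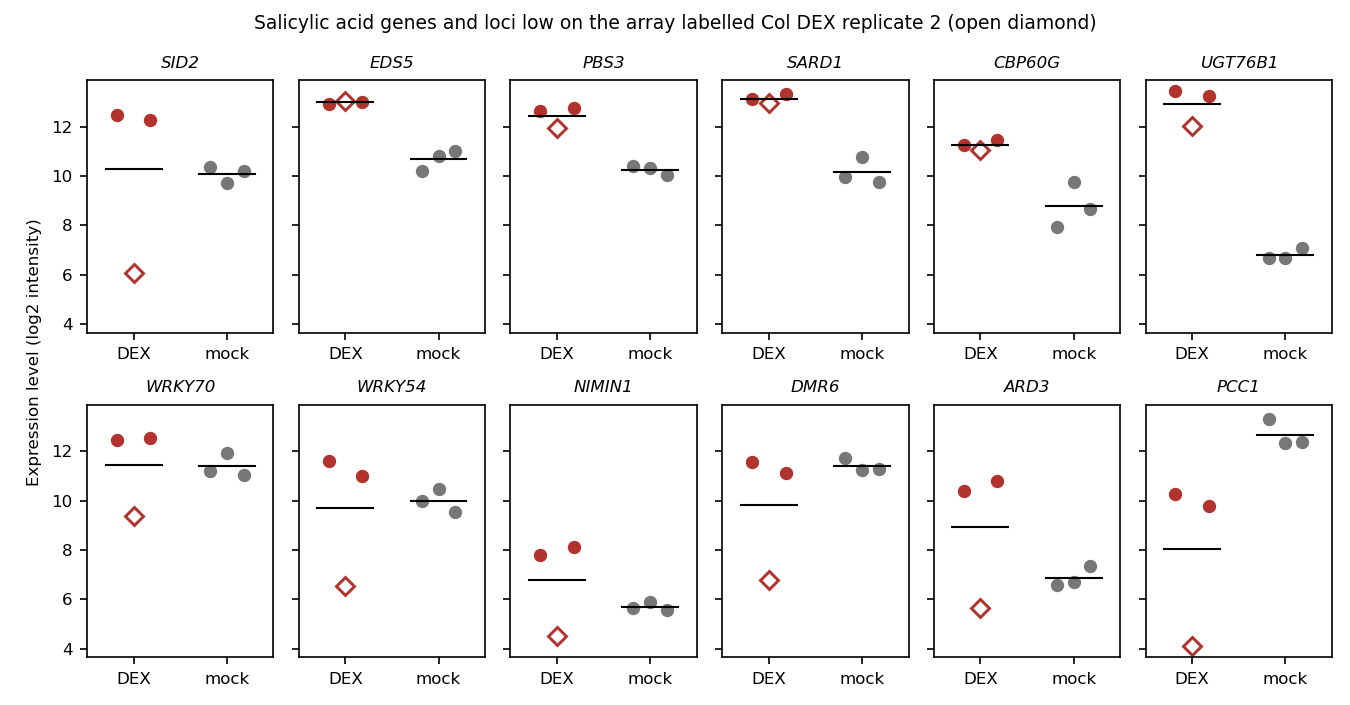
Expression level (log2 intensity) of 12 genes linked to salicylic acid or low on DEX array 2, on the 3 Col DEX arrays (left, red, DEX array 2 as an open diamond) and the 3 Col mock arrays (right, grey), with the group mean as a black line. The diamond lies with the other DEX arrays for EDS5, SARD1 and CBP60G. It lies more than 2-fold below both for SID2, UGT76B1, WRKY70, WRKY54, NIMIN1, DMR6, ARD3 and PCC1.

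Genes that act downstream of SA were low on DEX array 2. Of 14 genes of SA perception, turnover and response, 5 rose and 0 fell with all arrays, and 8 rose and 0 fell without DEX array 2. Only 3 rose without Col DEX replicate 3 or without Col mock replicate 1. DEX array 2 had the lowest level of the 3 DEX arrays for 13 of the 14 genes and was more than 2-fold below both others for 8. Over all 32627 loci these counts were 9771 and 208. The median change of the list was 0.24 with all arrays and 1.16 without DEX array 2. NIMIN1, an inhibitor of the SA co-activator NPR1, had 7.79, 4.50 and 8.11 on the DEX arrays, against 5.63, 5.88 and 5.58 on the mock arrays, and its change was 1.103 ± 0.67 (adjusted p 0.188) with all arrays and 2.25 (adjusted p 1.12e-06) without DEX array 2. WRKY70, a regulator of SA output, had 12.47, 9.36 and 12.54, against 11.22, 11.93 and 11.03, and was called higher without DEX array 2 alone (change 1.18, adjusted p 0.00394). Its relative WRKY54, chosen after its values were seen, had 11.63, 6.54 and 10.99, against 9.995, 10.46 and 9.55.

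Some SA-linked genes rose on all 3 DEX arrays. UGT76B1, a glucosyltransferase that acts on SA and isoleucic acid, had 13.43, 12.05 and 13.24 on the DEX arrays, against 6.65, 6.66 and 7.07 on the mock arrays (change 6.11 ± 0.30, adjusted p 2.23e-08). For this gene too, DEX array 2 was more than 2-fold below both other DEX arrays. PR5, a thaumatin-like protein, had 14.21, 14.13 and 14.17, against 12.67, 12.97 and 12.95 (change 1.31 ± 0.10). The pipecolate pathway of systemic acquired resistance rose further. ALD1, its first enzyme, had 11.53, 11.54 and 11.74, against 6.72, 5.89 and 5.75 (change 5.49 ± 0.35), and FMO1, which makes the active N-hydroxypipecolate, had 13.16, 13.03 and 13.24, against 6.48, 5.34 and 4.82 (change 7.60 ± 0.35). For both genes the 3 DEX arrays lay within 2-fold of each other. Of the 4 genes of this list 3 rose and 0 fell with all arrays, and 3 rose and 1, the lipid transfer gene DIR1, fell without DEX array 2.

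Over all loci, DEX array 2 was more than 2-fold below both other DEX arrays for 208 loci and above both for 124. These counts were 145 and 301 for DEX array 1 and 48 and 61 for DEX array 3, and among the mock arrays they reached 699 and 594. At 166 of the 208 loci, DEX array 2 was within 2-fold of the sid2 DEX mean. No such figure is given for the other arrays, and the origin of DEX array 2 was not tested. ARD3, an acireductone dioxygenase of methionine recycling, had 10.40, 5.64 and 10.81 on the DEX arrays, against 6.57, 6.71 and 7.36 on the mock arrays, and the sid2 DEX arrays had 5.32 to 5.62. PCC1, a pathogen- and clock-controlled gene chosen after its values were seen, had 10.26, 4.11 and 9.78, against 13.32, 12.36 and 12.37, and was called lower with all arrays (adjusted p 0.00893) but not without DEX array 2 (change -2.88, adjusted p 0.0242) nor without any 1 of the Col mock arrays (adjusted p 0.0173 to 0.034). When the DEX effect in sid2 was set against that in Col, 0 loci differed at the call threshold with all arrays and 734 (2.25%) did at an unadjusted p under 0.05. Without DEX array 2, 3 loci (0.00919%) differed, namely ARD3, AT5G41280 and DMR6, an SA hydroxylase, and 952 (2.92%) did at an unadjusted p under 0.05. Both shares are below the 5% that such a limit passes when nothing differs. SID2, the gene mutated in sid2, was not among the 3 loci. Because DEX array 2 was set aside for its sid2-like SID2 level, the 3 loci are given as a description. With all arrays, DEX array 2 widened the spread at such loci, and the SE of the Col change of SID2 was 1.19, against 0.175 without it. An uncalled locus is therefore not shown to change equally in both backgrounds.

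Calls in the indole branch of secondary metabolism were mostly higher and those in the aliphatic branch lower. Of 10 tryptophan synthesis genes, 5 rose and 0 fell in both fits. ASB1, a subunit of the first enzyme, had 13.17, 13.49 and 13.27 on the DEX arrays, against 10.11, 10.26 and 10.55 on the mock arrays (adjusted p 3.03e-08). The partner subunit ASA1 rose by 1.16 ± 0.09 and the later enzymes TSA1 and TSB2 by 1.74 ± 0.10 and 1.75 ± 0.25. Of 8 genes of camalexin and related phytoalexins 5 rose and 1 fell in both fits, with a median change of 2.97. CYP71A13, which makes the nitrile intermediate of camalexin, had 13.73, 13.85 and 13.91, against 6.70, 8.10 and 8.83 (change 5.95 ± 0.42), and its close copy CYP71A12 rose by 5.25 ± 0.27. The 2 enzymes that convert tryptophan to its aldoxime moved apart: CYP79B2 had 13.51, 13.65 and 13.58, against 11.41, 11.82 and 12.19, and rose by 1.77 ± 0.29, whereas CYP79B3 had 11.45, 11.87 and 11.94, against 12.96, 12.94 and 13.15, and fell by 1.26 ± 0.16.

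The same split was seen among regulators of indole glucosinolates, sulfur-rich defense compounds of the cabbage family. Of 12 genes 5 rose and 1 fell in both fits. MYB122 had 12.32, 12.94 and 12.29 on the DEX arrays, against 3.95, 4.33 and 4.75 on the mock arrays (change 8.17 ± 0.23, adjusted p 6.05e-10). MYB51 had 13.61, 13.69 and 13.59, against 10.22, 11.72 and 9.64 (change 3.10 ± 0.41). MYB34, the third regulator of this branch, had 4.92, 3.98 and 3.82, against 9.998, 9.22 and 10.04, and fell by 5.51 ± 0.32. CYP81F2, which hydroxylates the indole ring, and the methyltransferase IGMT1, which completes that step, rose by 5.04 ± 0.36 and 3.67 ± 0.29. CYP83B1, an upstream enzyme that is shared by the whole branch, changed by 0.42 ± 0.09 and was not called.

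Of 15 genes of aliphatic glucosinolate synthesis, 0 rose and 13 fell in both fits, with a median change of -3.96 against 0.045 over all loci. The list holds 3 regulators, and all of them fell. MYB28 had 9.07, 8.72 and 7.80 on the DEX arrays, against 12.64, 12.31 and 12.53 on the mock arrays (change -3.96 ± 0.26, adjusted p 1.75e-07). MYB29 had 5.77, 4.67 and 4.26, against 12.14, 12.14 and 12.02 (change -7.20 ± 0.41), and MYB76 fell by 5.73 ± 0.32. Among enzymes, MAM1, which elongates the methionine side chain, fell by 3.35 ± 0.36, and CYP79F1, which starts the core pathway, had 8.42, 6.67 and 5.77, against 11.82, 12.02 and 12.07 (change -5.01 ± 0.52). DEX array 1 was the highest of the DEX arrays for all of these named genes.

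**Figure D4:**
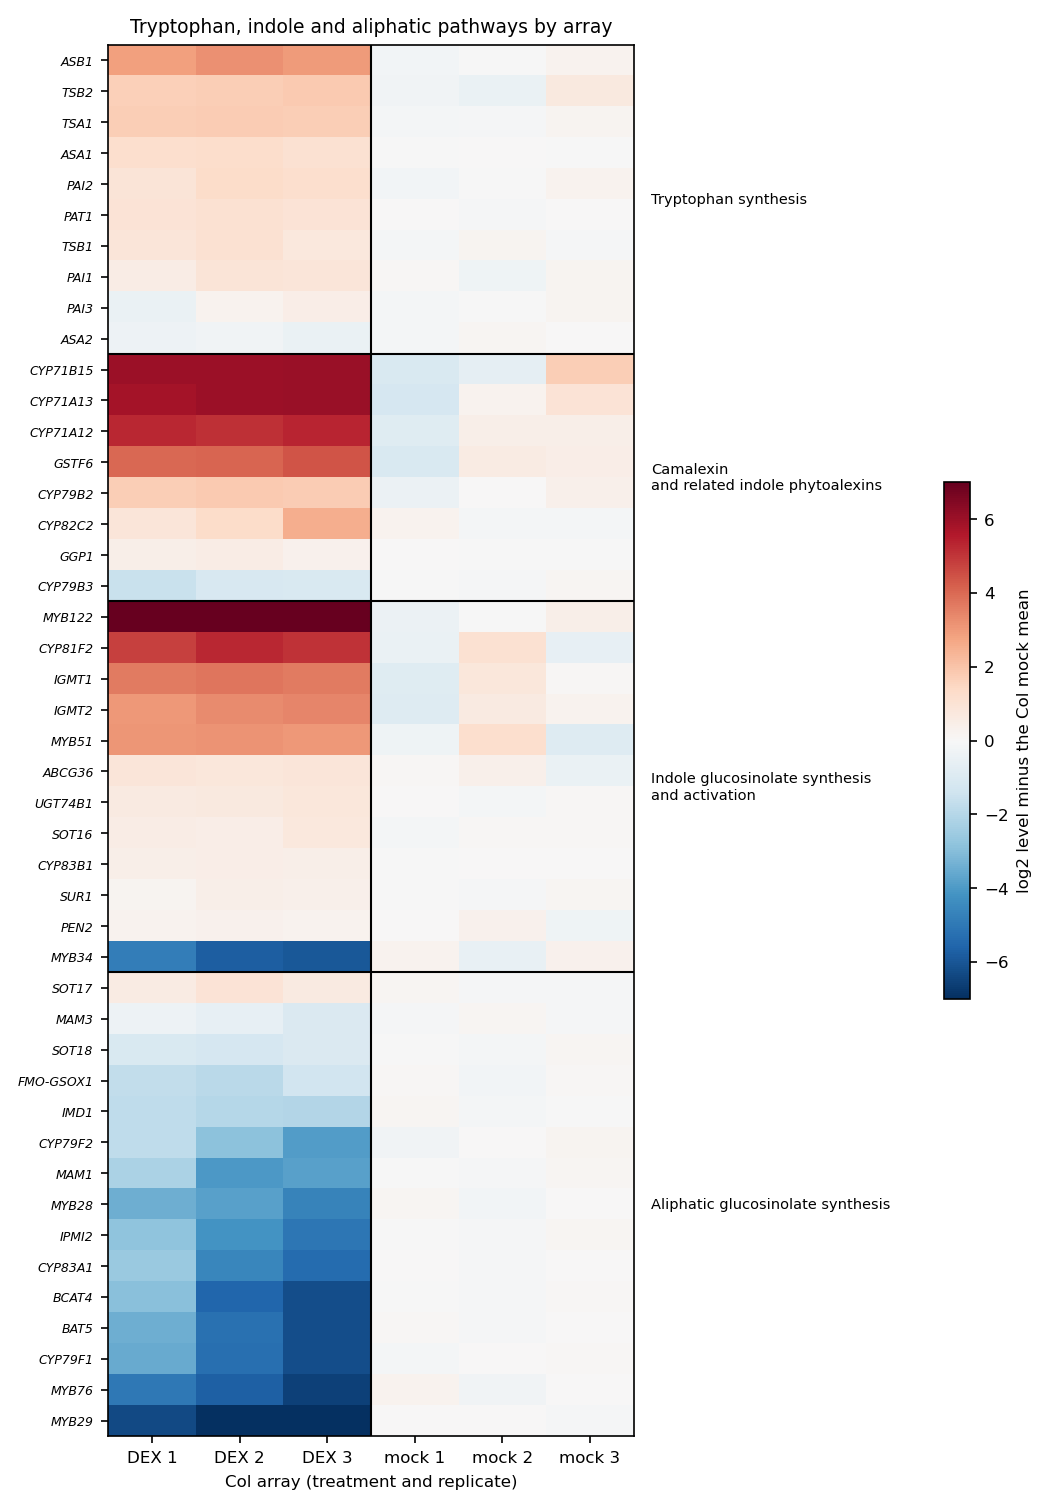
Level of each gene on the 3 Col DEX arrays (left) and the 3 Col mock arrays (right) of 4 gene lists, as log2 level minus the Col mock mean of that gene (red above, blue below, colours saturating at the ends of the scale). Tryptophan, camalexin and indole glucosinolate genes are mostly red with DEX, with CYP79B3 and MYB34 the clearest in blue, while aliphatic glucosinolate genes are blue except SOT17.

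Phenylpropanoid genes fell more often than they rose. Of 18 flavonoid and anthocyanin genes, 0 rose and 8 fell in both fits, and of 19 general phenylpropanoid and monolignol genes 2 rose and 7 fell in both fits. FLS1, flavonol synthase, had 5.04, 4.95 and 5.26 on the DEX arrays, against 8.86, 7.76 and 10.52 on the mock arrays (change -3.96 ± 0.64, adjusted p 0.000243). UGT78D1, a flavonol rhamnosyltransferase, fell by 4.66 ± 0.42. PAL1, the entry enzyme, fell by 1.28 ± 0.23 and its relative PAL3 by 2.97 ± 0.27. Against this trend the alcohol dehydrogenases ELI3-2 and CAD5 rose by 2.97 ± 0.35 and 1.599 ± 0.13.

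Of 12 ACC synthase genes, which encode the rate-limiting step of ethylene synthesis, 3 rose and 2 fell (2 and 2 without DEX array 2), and 1 rose in a paired fit to the Col arrays alone. ACS2 and ACS6, whose products MPK3 and MPK6 phosphorylate, rose by 5.54 ± 0.15 and 2.24 ± 0.46, and ACS4 and ACS11 fell by 2.44 ± 0.31 and 1.28 ± 0.14. Of 16 genes of ethylene formation, reception and core signaling, 3 rose and 0 fell in both fits. ACO4, which completes ethylene synthesis, had 13.85, 13.77 and 13.79 on the DEX arrays, against 12.27, 12.21 and 11.98 on the mock arrays (change 1.65 ± 0.10). The receptor gene EIN4 rose by 1.76 ± 0.19. The receptor gene ETR2 had 10.08, 9.60 and 9.74, against 6.92, 10.72 and 6.61, and was not called (change 1.72 ± 1.03, adjusted p 0.184). Without the arrays numbered 2 of all groups it was called, with a change of 3.14 (adjusted p 1.3e-05). In this list 1 gene was called lower without Col DEX replicate 1, Col mock replicate 1 or Col mock replicate 2.

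Ethylene and jasmonate output genes moved in both directions, with a median change of -1.40. The 4 members that rose were the only ones with a change above 0. Of 11 genes, 4 rose and 2 fell in both fits, and 4 fell without Col DEX replicate 1, sid2 mock replicate 1 or sid2 mock replicate 2. CHI-B, a basic chitinase, had 11.99, 12.21 and 12.09 on the DEX arrays, against 7.78, 9.26 and 8.51 on the mock arrays (change 3.58 ± 0.34). VSP2, a vegetative storage protein of the wound branch, had 5.69, 5.001 and 4.98, against 10.71, 7.50 and 12.21 (change -4.92 ± 0.85, adjusted p 0.000425), and VSP1 fell by 4.41 ± 0.72. Both were spread widely over the mock arrays. The defensin PDF1.2 had 10.84, 10.48 and 9.11, against 11.12, 12.69 and 10.83, and was not called (adjusted p 0.0593).

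Of 16 genes of jasmonate synthesis and breakdown, 2 rose and 3 fell (2 and 2 without DEX array 2). Without Col mock replicate 2, 4 rose. LOX4, a lipoxygenase, rose by 2.60 ± 0.30, and CYP94B3, which inactivates jasmonoyl-isoleucine, had 10.68, 11.18 and 10.91 on the DEX arrays, against 4.34, 8.95 and 5.42 on the mock arrays (change 4.68 ± 0.89, adjusted p 0.000823). AOC4, an allene oxide cyclase, fell by 1.79 ± 0.20. Of 12 JAZ repressors 4 rose and 1 fell (3 and 1 without DEX array 2), with JAZ10 at 3.42 ± 0.53, JAZ5 at 2.68 ± 0.34 and JAZ3 at -3.75 ± 0.20.

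Abscisic acid genes moved in both directions, in breakdown as well as in synthesis. Of 19 genes 6 rose and 3 fell (5 and 3 without DEX array 2). The enzymes that break down the hormone were split: CYP707A1 had at least 11.60 on the DEX arrays, against a mean of 7.66 on the mock arrays, and rose by 4.31 ± 0.17, whereas CYP707A4 and CYP707A2 fell by 3.90 ± 0.17 and 3.38 ± 0.29. In synthesis, ABA3 rose by 2.95 ± 0.26 and ABA1 fell by 1.26 ± 0.11. AHG1, a phosphatase known from seeds, had 7.56, 7.21 and 7.88, against 4.19, 4.36 and 4.39 (change 3.24 ± 0.21).

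Detoxification families were remodelled in both directions. Of 42 tau and phi glutathione transferases, 17 rose and 8 fell in both fits. GSTU3 had 12.21, 12.55 and 12.65 on the DEX arrays, against 3.74, 3.93 and 3.89 on the mock arrays (change 8.62 ± 0.16, adjusted p 1.52e-10), and GSTU4 and GSTU12 rose by 7.88 ± 0.26 and 7.61 ± 0.21. GSTF11 and GSTU18 fell by 5.17 ± 0.27 and 5.08 ± 0.31. Of 64 UDP-glycosyltransferases 22 rose and 12 fell (22 and 11 without DEX array 2), among them UGT73B3 at 5.14 ± 0.14 and UGT72E3, which glucosylates monolignols, at 7.47 ± 0.35. Of 240 cytochrome P450 genes 50 rose and 53 fell (50 and 51), so that their shares of 20.8% and 22.1% stood above those over all loci on both sides. Of 43 ABCG transporters 9 rose and 11 fell (9 and 10). ABCG40, a transporter of abscisic acid, had 14.57, 14.62 and 14.54, against 7.39, 6.98 and 7.87 (change 7.16 ± 0.62), and ABCG32, which is needed for the cuticle, fell by 2.83 ± 0.28.

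Of 11 mitochondrial stress genes 6 rose and 0 fell in both fits, with a median change of 1.67. AOX1D, an alternative oxidase, had 12.56, 12.62 and 12.72 on the DEX arrays, against 4.15, 3.83 and 4.81 on the mock arrays (change 8.37 ± 0.22, adjusted p 4.51e-10), and AOX1A had 13.20, 13.42 and 13.42, against 11.17, 11.26 and 11.38 (change 2.08 ± 0.10). The alternative dehydrogenases NDB2 and NDA2 rose by 2.69 ± 0.21 and 2.44 ± 0.15. Of 107 loci with a mitochondrial genome identifier, 55 rose and 0 fell (58 and 0 without DEX array 2), with a median change of 1.07. ATMG00820 had 10.98, 11.39 and 11.53, against 8.43, 8.36 and 8.66. A large copy of this genome lies in the nucleus of Arabidopsis, and probes may not tell the copies apart.

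Some genes of protein folding and turnover rose, and 0 members of the next 5 lists fell. Of 16 genes of folding and secretion in the endoplasmic reticulum 5 rose and 0 fell in both fits, and all 16 changes were above 0. BZIP60, a transcription factor of the unfolded protein response, had 14.11, 14.18 and 14.04 on the DEX arrays, against 12.25, 12.49 and 12.63 on the mock arrays (change 1.66 ± 0.10), and its activator IRE1A rose by 1.79 ± 0.14. The chaperone BIP3 rose by 4.14 ± 0.35. Of 13 protein disulfide isomerases 6 rose and 0 fell (5 and 0 without DEX array 2), with PDIL2-2 at 3.15 ± 0.09. Of 39 proteasome subunits 16 rose and 0 fell (15 and 0), with a median change of 0.89 and rises of 1.01 to 2.00. RPT2a, an ATPase of the regulatory particle, had 13.82, 13.85 and 13.94, against 12.65, 12.84 and 12.63 (change 1.16 ± 0.11). Of 9 ATG8 genes of autophagy 3 rose and 0 fell (4 and 0), and ATG8D and ATG8H rose by 1.88 ± 0.16 and 1.80 ± 0.13. Among 9 metacaspases 2 rose and 0 fell in both fits, and MC8 had 12.20, 12.59 and 12.14, against 6.73, 6.59 and 5.90 (change 5.90 ± 0.21).

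Heat shock proteins were less uniform. Of 30 genes 7 rose and 2 fell in both fits, and 4 rose when the replicate number was left out of the model. HSP90.1 had 12.99, 12.33 and 13.20 on the DEX arrays, against 11.02, 10.17 and 10.05 on the mock arrays (change 2.43 ± 0.30, adjusted p 3.03e-05), HSP17.4 rose by 3.42 ± 0.28, and HSP18.2 fell by 1.82 ± 0.10.

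Most nuclear genes of photosynthesis fell. Of 21 light-harvesting genes 0 rose and 19 fell (18 without DEX array 2), and of 27 photosystem and electron transport genes 0 rose and 25 fell in both fits. Of 20 Rubisco small subunit and Calvin cycle genes 15 fell in both fits, and 0 rose. The medians were -2.15, -1.89 and -1.64. Lhca6, a linker between photosystem I and the NDH complex, had 6.83, 5.996 and 5.55 on the DEX arrays, against 13.70, 13.56 and 13.74 on the mock arrays (change -7.54 ± 0.69, adjusted p 2.72e-06). LHCB2.3 fell by 6.90 ± 0.62 and LHCB1.4 by 5.55 ± 0.42. SBPASE, an enzyme of carbon fixation, had 10.51, 9.43 and 9.01, against 13.65, 13.38 and 13.54 (change -3.88 ± 0.37). In leaf RNA as a whole, fewer cells of a type and less RNA per cell cannot be told apart, and the summed intensity of the 6 mesophyll markers was 25257 to 37430 on the DEX arrays and 81754 to 89160 on the mock arrays.

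Copies of the same subunit differed in how far they fell. RBCS1A, the most abundant Rubisco small subunit gene, had 13.59, 12.92 and 13.00 on the DEX arrays, against 14.42, 14.29 and 14.31 on the mock arrays (change -1.17 ± 0.14), whereas RBCS1B had 6.64, 5.29 and 4.997, against 11.55, 11.39 and 12.14 (change -6.05 ± 0.58). PSAD-1, a photosystem I subunit, had a change of -0.34 ± 0.10 and was not called, and its copy PSAD-2 fell by 3.93 ± 0.38. RCA, Rubisco activase, had 14.00, 13.62 and 13.71, against 14.24, 14.11 and 14.32, and was not called (change -0.45 ± 0.11, adjusted p 0.00447). The highest levels on the Col mock arrays were 14.52 to 14.92, close to the mock levels of RBCS1A and RCA. Falls from there may be understated, which was not tested.

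Chlorophyll synthesis fell in the same way. Of 20 genes 0 rose and 14 fell in both fits. PORC, a protochlorophyllide reductase of green tissue, had 8.93, 7.94 and 7.85 on the DEX arrays, against 13.52, 13.51 and 13.31 on the mock arrays (change -5.21 ± 0.38, adjusted p 4.84e-07), and PCB2, a later reductase, fell by 4.54 ± 0.27. CHLH, a magnesium chelatase subunit, had 13.67, 13.13 and 13.01, against 13.94, 13.96 and 13.97, and was not called. Of 87 loci with a chloroplast genome identifier 0 rose and 25 fell (1 and 25 without DEX array 2), with a median change of -0.48 that was smaller than those of the nuclear lists. A single chloroplast locus was also called higher without Col DEX replicate 1, Col mock replicate 1 or Col mock replicate 3.

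**Figure D5:**
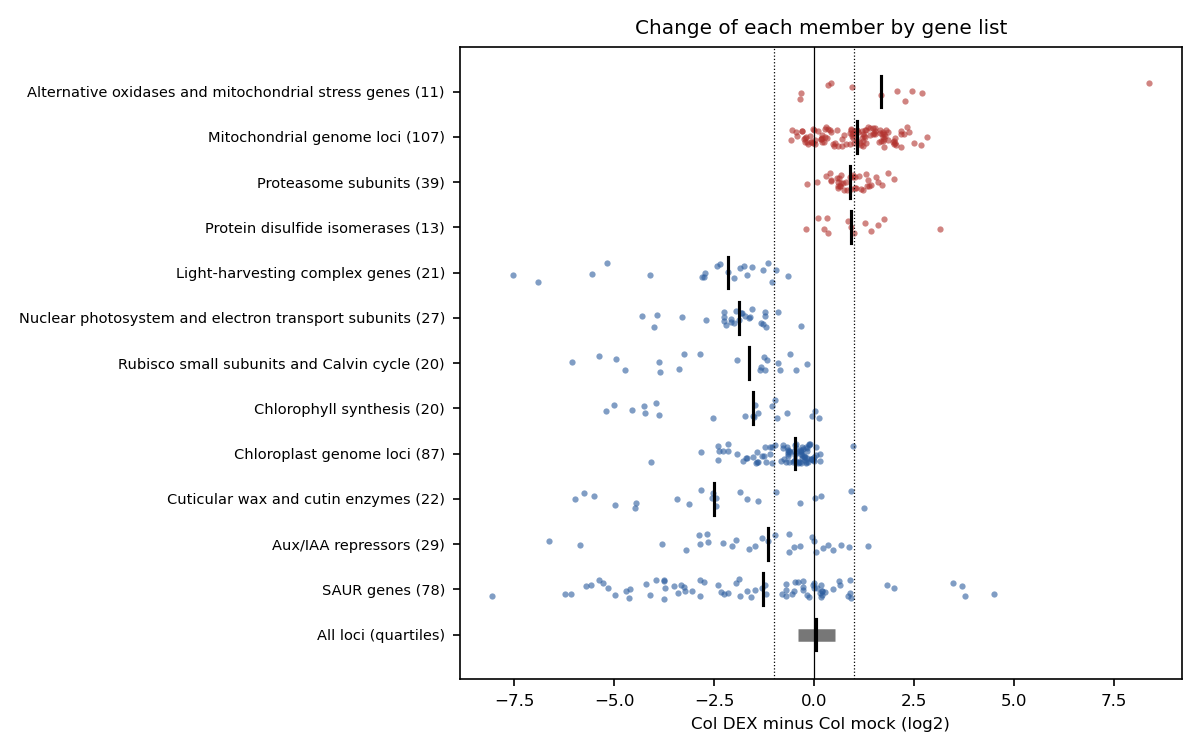
Change of each member (Col DEX minus Col mock, log2, all arrays) in 12 gene lists, 1 point per gene, with the list median as a black bar and dotted lines at the 2-fold limits. The bottom row gives the median and quartiles over all loci; mitochondrial, proteasome and disulfide isomerase lists lie mostly to the right, and chlorophyll, photosynthesis, wax and auxin lists mostly to the left.

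Chlorophyll breakdown and senescence genes were not uniformly higher. Of 13 genes 5 rose and 1 fell in both fits. NYE2, which helps to dismantle chlorophyll, had 9.94, 9.34 and 10.40 on the DEX arrays, against 5.71, 6.55 and 6.39 on the mock arrays (change 3.68 ± 0.28), and SAG13 had 13.37, 13.42 and 13.17, against 9.55, 9.90 and 10.16 (change 3.45 ± 0.15). SAG12, the protease that marks late senescence, had 3.97, 4.55 and 5.37, against 3.91, 3.85 and 3.74, and stayed close to the dim level (adjusted p 0.0273). Without Col DEX replicate 1 it was called, with a change of 1.11. NOL, a chlorophyll b reductase, fell by 2.07 ± 0.17.

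Nitrogen genes were also mixed, with 4 of 18 higher and 6 lower (3 and 6 without DEX array 2). The cytosolic glutamine synthetases moved apart, GLN1.3 rising by 1.52 ± 0.13 and GLN1.4 falling by 3.35 ± 0.26. NRT1.1, a nitrate transporter and sensor, had 11.39, 10.74 and 10.66 on the DEX arrays, against 13.22, 13.24 and 13.50 on the mock arrays (change -2.39 ± 0.22). Of 27 STP and SWEET sugar transporters 4 rose and 9 fell in both fits. The hexose importers STP13 and STP4 rose by 2.67 ± 0.36 and 1.53 ± 0.14. SWEET16 and SWEET17, sugar carriers of the vacuole, fell by 6.47 ± 0.29 and 3.88 ± 0.20.

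Growth hormone genes fell in large numbers. Of 21 gibberellin and brassinosteroid genes 4 rose and 13 fell in both fits, with a median change of -1.59. Gibberellin synthesis and breakdown moved in opposite directions. GA3OX1, which makes the active hormone, had 6.06, 5.28 and 5.31 on the DEX arrays, against 11.22, 11.66 and 11.42 on the mock arrays (change -5.88 ± 0.40, adjusted p 2.69e-07), and GA20OX1, which acts before it, fell by 5.32 ± 0.17 to below the dim level. The inactivating enzyme GA2OX6 rose by 2.504 ± 0.43, and RGL3, a DELLA repressor of gibberellin responses, had 10.04, 10.12 and 10.55, against 7.14, 7.24 and 8.25 (change 2.69 ± 0.29). BR6OX2, which completes brassinosteroid synthesis, fell by 6.13 ± 0.24.

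Among auxin and cytokinin response genes, falls outnumbered rises. Of 78 SAUR genes 6 rose and 40 fell (6 and 39 without DEX array 2), and of 29 Aux/IAA repressors 1 rose and 13 fell in both fits. IAA17 had 7.09, 4.93 and 4.82 on the DEX arrays, against 12.17, 11.73 and 12.79 on the mock arrays (change -6.62 ± 0.53), and IAA3 fell by 5.84 ± 0.14. IAA28 was the member that rose, by 1.35 ± 0.16. SAUR36, a SAUR gene linked to senescence, went against its family with 10.69, 11.02 and 11.15, against 5.93, 6.37 and 7.10 (change 4.49 ± 0.21). Of 23 auxin response factors 2 rose and 6 fell (1 and 6). ARF8 and ARF18 fell by 2.42 ± 0.15 and 3.18 ± 0.12. Of 24 cytokinin response regulators 1 rose and 10 fell in both fits, and 0 rose without Col DEX replicate 1. ARR6, a repressor that is itself induced by cytokinin, had 4.21, 4.89 and 4.89, against 11.40, 11.32 and 11.63 (change -6.79 ± 0.29, adjusted p 8.23e-09), while ARR7 and ARR5 fell by 1.61 ± 0.21 and 1.37 ± 0.20.

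Among cell wall and water transport genes falls outnumbered rises, though several lists lay near the shares over all loci, 13.8% higher and 15.0% lower. Of 31 expansins, which loosen the wall, 2 rose and 9 fell (1 and 9 without DEX array 2), and a single member also rose without Col mock replicate 2. EXPA8 fell by 6.37 ± 0.27 and EXPB1 by 5.44 ± 0.27, while EXPA19 had 8.56, 8.12 and 8.80 on the DEX arrays, against 3.66, 3.42 and 3.02 on the mock arrays (change 5.13 ± 0.22). Of 33 xyloglucan endotransglucosylase/hydrolases 5 rose and 8 fell in both fits, shares of 15.2% and 24.2%. The median changes of the expansins and of these enzymes were -0.17 and -0.08. XTH29 and XTH23 rose by 6.67 ± 0.14 and 6.46 ± 0.20, and XTH31 fell by 6.64 ± 0.39. Of 20 fasciclin-like proteins 1 rose and 12 fell in both fits, with FLA5 at 5.21 ± 0.22 and FLA13 at -5.66 ± 0.21. Of 10 cellulose synthases 0 rose and 2 (20%) fell in both fits, CESA2 by 1.58 ± 0.23 and CESA5 by 1.47 ± 0.15. Of 34 aquaporins 3 rose and 15 fell (3 and 13), and 1 rose without Col mock replicate 1 or Col mock replicate 2. TIP1;1 had 12.55, 12.01 and 12.13, against 13.70, 13.57 and 13.73 (change -1.44 ± 0.12).

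Genes of the leaf surface fell together. Of 22 wax and cutin enzymes 1 rose and 16 fell (1 and 17 without DEX array 2), with a median change of -2.49. CER6, which elongates wax precursors, had 10.29, 8.004 and 8.45 on the DEX arrays, against 13.33, 13.19 and 13.57 on the mock arrays (change -4.45 ± 0.50, adjusted p 1.47e-05), and CER1, an alkane-forming enzyme, fell by 2.55 ± 0.34. CER2 and the cutin genes BDG1 and CYP86A8 fell by 5.97 ± 0.32, 5.74 ± 0.37 and 5.50 ± 0.30. GPAT8, a cutin acyltransferase, rose by 1.25 ± 0.15.

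Of 16 stomatal genes 1 rose and 7 fell in both fits. SPCH, the factor that starts the lineage, had 11.35, 12.34 and 11.48 on the DEX arrays, against 6.80, 5.51 and 6.18 on the mock arrays (change 5.56 ± 0.40, adjusted p 4.17e-07). STOMAGEN, a mesophyll peptide that promotes stomata, had 3.30, 3.21 and 3.28, against 11.01, 9.94 and 11.10 (change -7.42 ± 0.37), and was dim on every DEX array. The receptors ER and ERL2 fell by 4.98 ± 0.20 and 3.94 ± 0.20, and TMM by 1.47 ± 0.24. FAMA, which completes guard cell fate, had 10.65, 10.45 and 10.45, against 10.55, 10.30 and 10.27, and was not called. Of 5 guard cell markers 2 fell (3 without DEX array 2), and of 4 phloem markers 1 fell in both fits.

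Of 14 clock genes 6 rose and 1 fell (5 and 1 without DEX array 2). The evening genes GI and TOC1 had non-overlapping groups: GI had 12.15, 12.19 and 12.20 on the DEX arrays, against 10.21, 10.82 and 9.95 on the mock arrays (change 1.85 ± 0.24), and TOC1 rose by 1.51 ± 0.20. LUX and ELF4, partners in the evening complex, rose by 2.84 ± 0.18 and 2.81 ± 0.39. The morning gene PRR9 fell by 1.51 ± 0.17, and CCA1 and LHY had changes of -0.82 ± 0.22 and -0.28 ± 0.17 and were not called. The hour of sampling is not given in the sources used here.

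Of 20 sterol genes 2 rose and 4 fell in both fits. The sterol desaturase CYP710A1 had 13.49, 13.65 and 13.60 on the DEX arrays, against 4.28, 4.17 and 4.85 on the mock arrays (change 9.15 ± 0.15), and SMT3, a sterol methyltransferase, rose by 2.54 ± 0.19. The neighbouring desaturase gene CYP710A2 had 7.49, 6.53 and 7.01 on the DEX arrays, against 10.59, 10.73 and 11.60 on the mock arrays (change -3.96 ± 0.27). Of 24 mitotic cyclins and B-type kinases 2 rose and 2 fell (1 and 2), and with all arrays each share, 8.33%, was below that over all loci. The mitotic marker CYCB1;1 had 6.88, 6.84 and 6.51 on the DEX arrays, against 6.90, 6.61 and 6.06 on the mock arrays, with overlapping groups. Of 12 genes often used as stable controls 0 rose and 1 fell in both fits. This was the tubulin TUB6, which fell by 1.53 ± 0.11.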

How the data were processed

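Leaf RNA was labelled with Cy3 and hybridised to NimbleGen arrays with TAIR9 gene models, 1 sample per array. The deposited values were linear intensities per locus, which the authors had summarised with RMA; the set of arrays normalised together is not given in the sources used here. Here log2 intensities were fitted with limma 3.58.1 (statmod 1.5.0, R 4.3.3) over 4 groups and 12 arrays, with the replicate number as a random block (consensus correlation 0.208). Same-numbered Col arrays deviated together from their group means (r = 0.303, 0.174 and 0.298), against -0.274 to -0.080 for different numbers. Deviations within a group cancel out, so positive values for the same number make those for different numbers negative on average. All 32627 loci were tested, and Benjamini-Hochberg adjusted p-values cover all of them. The number of arrays limits the precision. Gene symbols came from the RefSeq table of assembly TAIR10.1. Genes were named by role in a list, or as up to 3 rises and 3 falls per list and 10 overall among called loci of the same sign in all pairs. The members and lists were chosen with earlier results of these data known. The fit was tested on simulated data. Promoter motifs were not analysed here. Alternatives covered the block, each left-out array, scaling, a filter on dim loci, array weights and the threshold.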

Additional observations from a re-analysis of the deposited data

Results flagged for a closer look

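Without DEX array 2, the DEX effect differed between sid2 and Col at 3 loci by a limma interaction test. The limit was a Benjamini-Hochberg adjusted p under 0.01. That array was left out because its SID2 level was at that of the sid2 arrays. Leaving it out can by itself enlarge such differences, so the values below are given as a description. ARD3 changed by 0.47 in sid2 leaves and 3.69 in Col leaves, a difference of -3.23 ± 0.28 (adjusted p 0.00605). DMR6 changed by -2.77 in sid2 leaves and -0.10 in Col leaves, a difference of -2.67 ± 0.20 (adjusted p 0.00552). AT5G41280 changed by 0.14 in sid2 leaves and 1.71 in Col leaves, a difference of -1.57 ± 0.14 (adjusted p 0.00605). With all arrays 0 loci differed, and 734 (2.25%) did at an unadjusted p under 0.05, a share below the 5% that such a limit passes when nothing differs. An uncalled locus is not shown to change equally in both backgrounds.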

How the results depend on the processing

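Leaving out 1 array, or all arrays numbered 2, gave 8954 to 9393 called loci, 4224 to 4555 higher and 4710 to 4929 lower. With the replicate block as a fixed term 9403 loci were called, without a replicate block 9086, and with the pairing kept in a fit to the Col arrays alone 8938, or 8702 without DEX array 2. A 4-fold limit left 4485 loci (1921 higher, 2564 lower), and a test against a 2-fold change (limma treat) left 5328 (2311 higher, 3017 lower). Shifting the arrays to a common median moved the median change of all loci to 0.152 and the share of higher calls to 52.9%, against 47.9% in the main fit. The difference between the DEX effects of sid2 and Col gave 3 loci without DEX array 2, against 0 with it.

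Of 197 named and called genes, 193 kept sign and call under every alternative other than the stricter fold limits, and 0 changed sign under any. The exceptions were PCC1, which lost its call without a block, in the Col arrays alone and without single arrays, ACS6, which lost it in the paired fit to the Col arrays alone, and RBCS1A and ARR5, which lost it in the paired fit to the Col arrays without DEX array 2. Changes that reversed belonged to genes not called with all arrays. Over the left-out arrays SID2 ranged from -0.92 to 2.25, WRKY70 from -0.51 to 1.38 (-0.03 with array weights), FLS2 from -1.66 to 0.03, MPK3 from -0.05 to 0.37, ERF6 from -1.11 to 0.90, WRKY54 from -1.22 to 1.54, RRTF1 from -0.66 to 2.70 and DDF1 from -1.56 to 1.33. The paired fit to the Col arrays without DEX array 2 gave 0.03 for FLS2, 0.89 for ERF6, 1.54 for WRKY54 and 1.33 for DDF1. The cause was not tested.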
